A study of Homo sapiens with 6 samples.

Results

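The Wnt ligands, receptors, secreted antagonists and feedback genes were followed through RNA sequencing of H69 cells, a cholangiocyte line (the epithelium of the bile ducts), at passages 30 to 32. Members were the protein-coding genes on reference chromosomes named WNT, FZD, SFRP or DKK with a number, together with 21 co-receptor, intracellular and secretion genes given by name. This selected 58 of the 64253 genes in the table. Measured expression played no part in the rule, but the members were chosen with earlier results of these data known. The 3 TGF-beta libraries came from cells exposed to recombinant human TGF beta (10 ng/ml, 16 h), and the 3 vehicle libraries from vehicle-treated cells of the same line. The comparison asked which genes change expression when cholangiocytes meet this cytokine. All libraries came from 1 cell line, and nothing in the labels says whether the replicates are independent cultures. The p-values therefore cover the variation among these samples alone, and it may be technical.

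Wnt proteins are lipid-modified ligands that bind Frizzled receptors. With the co-receptors LRP5 and LRP6 they stop the destruction of beta-catenin, which then acts with TCF/LEF factors on target genes, whereas with receptors such as ROR2 and RYK they act on cell polarity and movement without beta-catenin. AXIN2, LEF1, NKD1, RNF43 and ZNRF3 are textbook feedback genes of the beta-catenin branch. In the liver, Wnt signalling is known for setting the zones of hepatocytes and for its part in bile duct repair.

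Deposited counts per library summed to between 37205862 and 54160521, so that 1 CPM (counts scaled to a common library size, with TMM factors) stood for 35.7 to 56.2 reads. Vehicle replicate 1 stood apart from the other 2 vehicle libraries: 10 of the 40 tested members (25%) differed by more than 0.5 on the log2 CPM scale between it and their mean, against 10.8% of all genes tested. The same distance between vehicle replicates 2 and 3 was passed by 1 of the 40 members (2.5%) and 5.01% of all genes. Of 16 cholangiocyte markers, 12 were tested and their summed level was 6479 to 7033 CPM in TGF-beta and 4508 to 4886 CPM in vehicle libraries, while CFTR had no read and SPP1 and SCTR had at most 6 in any library. Of 10 fibroblast markers, 7 were tested. The list summed to 5130 to 5879 CPM in TGF-beta and 1712 to 1897 CPM in vehicle libraries, most of it COL1A1. Mean CPM in TGF-beta and vehicle libraries was 143 and 28.3 for COL1A2, 135 and 66.9 for PDGFRB, and 134 and 105 for THY1. In the same order FAP was higher (2.97 and 0.312 CPM), DCN overlapped (0.798 and 0.657 CPM) and PDGFRA was lower (4.17 and 6.84 CPM). The fibroblast genes COL3A1 and LUM had 0 reads in TGF-beta libraries and at most 3 in a vehicle library, and DES at most 2 in any library. Endothelial, hepatocyte and immune lists summed to at most 25.4, 82.8 and 23.7 CPM in any library. The part of these differences in the results below was not tested, and in bulk RNA fewer cells of a type and less RNA per cell cannot be told apart.

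Of the 58 genes, 40 passed the filter on low counts. A gene is said to be called where its Benjamini-Hochberg adjusted p over all genes, from the quasi-likelihood test of edgeR, was under 0.05. On that rule 16 members were higher with TGF-beta and 9 lower. Of all 20992 genes tested, 40.1% were called, 19.7% higher and 20.4% lower. The median log2 fold change was 0.02 over the 40 members and -0.01 over all genes tested. Changes of at least 2-fold were called for 8 higher and 3 lower members, against 4.78% and 3.59% of all genes. SFRP4 and NKD1 passed the filter through the TGF-beta libraries alone, with no vehicle library above its floor, so they had to be higher. WNT11 was above the floor in 3 TGF-beta and 2 vehicle libraries. Among the 37 members above the filter's floor in all 6 libraries, 13 were higher and 9 lower, of which 5 and 3 by at least 2-fold, and 26 had separate CPM ranges. The matching shares of all genes above that floor were not computed, here or for the pathway lists below. The CPM ranges of TGF-beta and vehicle libraries were separate for 29 of the 40 members and for 52.3% of all genes tested (25.4% separate upward and 26.9% downward).

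**Figure D1:**
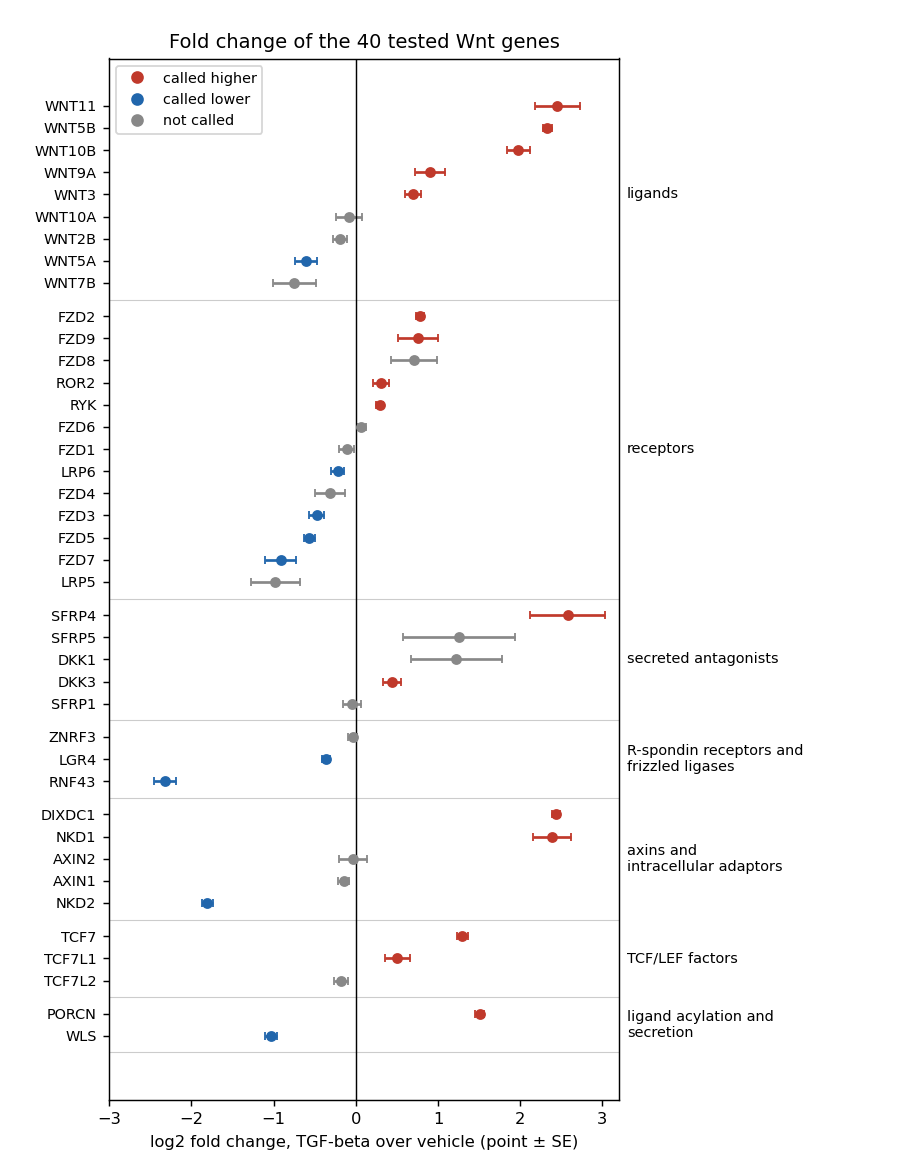
Log2 fold change of TGF-beta over vehicle for the 40 tested Wnt genes (point ± SE, 3 libraries each), grouped by role. WNT11, WNT5B, SFRP4, DIXDC1 and NKD1 lie above 2, and RNF43 below -2.

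The changes ran in both directions within most roles. Among ligands WNT5B, WNT10B and WNT11 rose at least 3.93-fold. Among feedback genes RNF43 and NKD2 fell, NKD1, which could only be called higher, rose, and AXIN2 was not called. Of the genes that make and export Wnt proteins PORCN rose while WLS fell. The counts depended on scaling, filter and tool, as follows.

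With RLE size factors, 16 of 40 members tested were higher and 8 lower, beside 40% of all genes called, 20.5% higher and 19.6% lower. With library totals alone, 12 of 40 members tested were higher and 16 lower, beside 47.5% of all genes called, 12.9% higher and 34.7% lower. Without a filter, 17 of 55 members tested were higher and 11 lower, beside 23.4% of all genes called, 11.4% higher and 12% lower. With at least 1 CPM in 3 samples, 12 of 35 members tested were higher and 9 lower, beside 46.2% of all genes called, 22.7% higher and 23.6% lower. By DESeq2, 16 of 43 members tested were higher and 10 lower, beside 29.7% of all genes called, 15.5% higher and 14.1% lower. By limma on log2(RPKM + 1), 9 of 25 members tested were higher and 9 lower, beside 45.9% of all genes called, 16% higher and 29.9% lower. With a pseudocount of 0.1 instead, 9 of 25 members tested were higher and 9 lower, beside 45.9% of all genes called, 15.9% higher and 29.9% lower. With the replicate number as a block, 15 of 40 members tested were higher and 8 lower, beside 40.9% of all genes called, 20.2% higher and 20.6% lower. Without TGF-beta replicate 1, 14 of 41 members tested were higher and 8 lower, beside 32.1% of all genes called, 16.4% higher and 15.7% lower. Without TGF-beta replicate 2, 13 of 40 members tested were higher and 8 lower, beside 29.5% of all genes called, 15.1% higher and 14.4% lower. Without TGF-beta replicate 3, 12 of 41 members tested were higher and 8 lower, beside 30.8% of all genes called, 15.6% higher and 15.2% lower. Without vehicle replicate 2, 14 of 40 members tested were higher and 8 lower, beside 31.8% of all genes called, 16.2% higher and 15.6% lower. Without vehicle replicate 3, 14 of 40 members tested were higher and 8 lower, beside 33.5% of all genes called, 17% higher and 16.5% lower.

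The ligand with the most transcript changed between conditions. Per gene length, on the scale of the deposited RPKM (reads per kilobase of gene and per library size), WNT5B averaged 8.33 ± 0.252 RPKM in TGF-beta and 1.76 ± 0.0590 RPKM in vehicle libraries, and WNT7B had 2.03 to 2.21 RPKM in TGF-beta and 2.46 to 4.48 RPKM in vehicle libraries (± is the SD, n = 3 each). Of the RPKM summed over the 19 ligand genes, WNT5B held 63.7 ± 0.473% in TGF-beta and 25.2 ± 4.39% in vehicle libraries. WNT7B held 16.1 ± 0.415% in TGF-beta and 51.8 ± 6.79% in vehicle libraries. The ratio of WNT5B to WNT7B within a library, which no scaling between libraries can move, was 3.88, 4.09 and 3.88 in TGF-beta libraries against 0.688, 0.414 and 0.400 in vehicle libraries. The TGF-beta ratios all lay above the vehicle ratios. The two-sided exact permutation p was 0.1, the smallest that 3 against 3 libraries allow. This pair was chosen after its values were seen. The summed ligand level was 13.1 ± 0.337 RPKM in TGF-beta and 7.12 ± 1.34 RPKM in vehicle libraries (mean ± SD, n = 3 each).

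**Figure D2:**
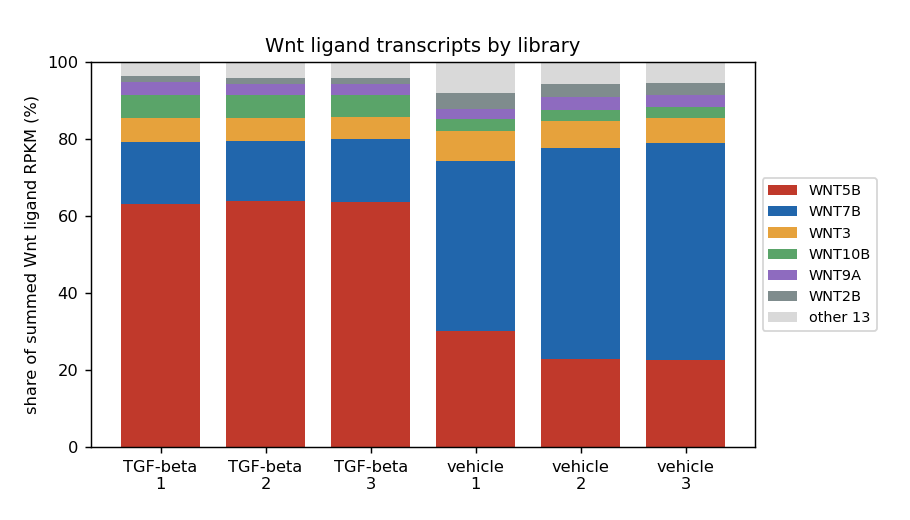
Share of the RPKM summed over 19 Wnt ligand genes (%) held by each ligand in each library. WNT5B fills 63.1 to 64.0% of each TGF-beta bar, and WNT7B 44.0 to 56.4% of each vehicle bar.

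WNT5B (ENSG00000111186, hg38 chr12:1529891-1647243), a ligand known mainly for signalling without beta-catenin, measured 84.1, 86.4 and 90.0 CPM in TGF-beta libraries against 16.6, 17.6 and 17.5 CPM in vehicle libraries. The rise was 5.03-fold (log2 2.33, SE 0.05, edgeR adjusted p = 6.29e-10). FBXL14, which lies within the span of WNT5B without shared exons in GENCODE v29, went the other way (log2 -1.08). WNT5A, the close paralog of WNT5B, was much scarcer and fell, at 1.40, 1.61 and 1.39 CPM in TGF-beta libraries against 2.34, 2.10 and 2.29 CPM in vehicle libraries (log2 -0.60, SE 0.14, edgeR adjusted p = 0.00544). WNT5B had 104 times the RPKM of WNT5A in TGF-beta libraries and 13.5 times in vehicle libraries.

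WNT10B, a ligand of the beta-catenin branch, measured 4.90, 5.10 and 4.77 CPM in TGF-beta libraries against 0.978, 1.42 and 1.31 CPM in vehicle libraries, a rise of 3.93-fold (log2 1.98, SE 0.14). WNT11, known from convergent movements of embryonic tissue, measured 1.04, 1.46 and 1.34 CPM in TGF-beta libraries against 0.143, 0.231 and 0.309 CPM in vehicle libraries, whose values lie around the filter's floor of 0.227 CPM (log2 2.45, SE 0.27). Smaller rises were called for WNT9A (log2 0.90) and WNT3 (log2 0.70). WNT9A measured 3.51 to 3.92 CPM in TGF-beta and 1.34 to 2.40 CPM in vehicle libraries, and WNT3 7.79 to 8.34 and 4.39 to 5.36 CPM in the same order, so neither pair of ranges overlapped. WNT2B (log2 -0.19) and WNT10A (log2 -0.08) were not called, although WNT2B was called lower with library totals alone (edgeR adjusted p = 0.00829) and without vehicle replicate 1 (edgeR adjusted p = 0.0405).

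WNT7B, which held the largest ligand share in vehicle libraries, measured 25.4, 24.8 and 27.2 CPM in TGF-beta libraries against 28.2, 49.98 and 51.4 CPM in vehicle libraries. It was not called (log2 -0.75, SE 0.26, edgeR adjusted p = 0.0842), and vehicle replicate 1 lay close to the TGF-beta libraries. Without vehicle replicate 1 it was called lower (log2 -0.98, edgeR adjusted p = 8.46e-16), as it was by DESeq2 (adjusted p = 0.0271), by limma on RPKM (adjusted p = 0.0318 and 0.0297) and with library totals alone (edgeR adjusted p = 0.0477). Fits without vehicle replicate 1, here and below, rest on vehicle replicates 2 and 3, which lay close together, so their small p-values need not make a call firmer.

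The other 10 ligand genes stayed under the filter. WNT9B had no read in any library, which at a floor of 3 reads allows up to 0.0534 to 0.084 CPM per library. WNT4 had 20 reads over the TGF-beta libraries and 28 over the vehicle libraries. WNT7A had 26 reads over the TGF-beta libraries and 4 over the vehicle libraries, and WNT6 had 2 and 20 in the same order. In the edgeR fit without a filter both were called, WNT7A higher (adjusted p = 0.000294) and WNT6 lower (adjusted p = 0.0107), while WNT1, with 1 read in TGF-beta and 11 in vehicle libraries, was not (adjusted p = 0.0888). WNT2, WNT3A, WNT8A, WNT8B and WNT16 had at most 4 reads in any library.

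PORCN and WLS act on every Wnt ligand: PORCN is the acyltransferase that attaches the lipid, and WLS carries the lipid-bearing ligand to the cell surface. They moved in opposite directions. PORCN (hg38 chrX:48508962-48520814) measured 84.9, 90.5 and 92.3 CPM in TGF-beta libraries against 29.4, 32.5 and 32.1 CPM in vehicle libraries, 2.85-fold higher (log2 1.51, SE 0.05, edgeR adjusted p = 1.64e-08). WLS (hg38 chr1:68098473-68233120) measured 20.9, 22.1 and 20.7 CPM in TGF-beta libraries against 39.2, 44.0 and 47.1 CPM in vehicle libraries, a log2 fold change of -1.03 (SE 0.07, edgeR adjusted p = 1.41e-06).

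**Figure D3:**
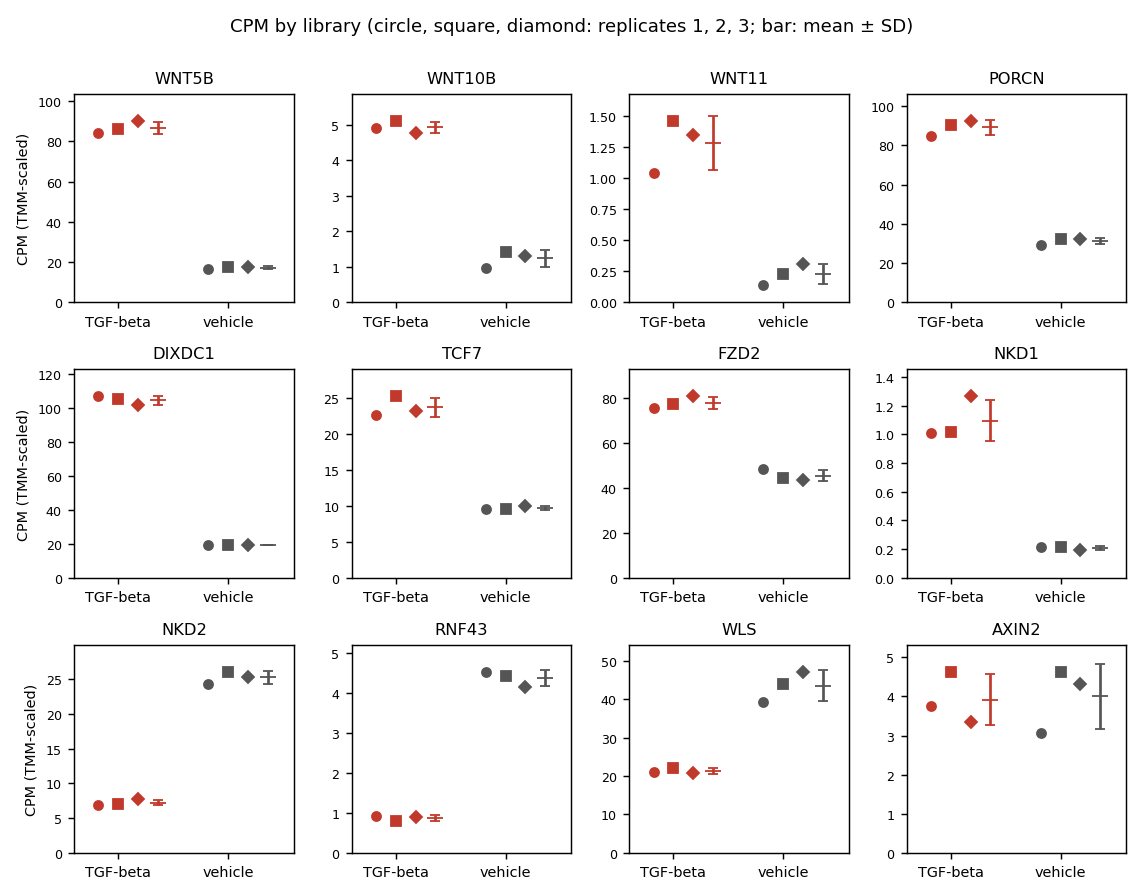
TMM-scaled CPM of 12 genes in each library, with the mean ± SD (n = 3) to the right of each group. The conditions do not overlap in 11 panels, all of called members, and in the AXIN2 panel they do. Ranges were separate for 52.3% of all genes tested. NKD1 passed the filter through the TGF-beta libraries alone and had to be higher.

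With all 6 libraries and TMM scaling, no receptor was called with a change of 2-fold or more. FZD7 passed that size with library totals alone (log2 -1.04) and without vehicle replicate 1 (log2 -1.08), FZD9 without TGF-beta replicate 2 (log2 1.02), and LRP5 with library totals alone and without vehicle replicate 1 (log2 -1.1 and -1.22). FZD2 was the most abundant Frizzled per length in both conditions, at 15.2 ± 0.433 RPKM in TGF-beta and 9.44 ± 0.538 RPKM in vehicle libraries, followed by FZD6 at 4.53 ± 0.210 and 4.59 ± 0.227 RPKM (mean ± SD, n = 3 each). Of the RPKM summed over the 10 FZD genes, FZD2 held 59.7, 60.5 and 61.9% in TGF-beta libraries against 46.7, 41.5 and 41.5% in vehicle libraries. FZD2 measured 75.8, 77.3 and 80.8 CPM in TGF-beta libraries against 48.4, 44.4 and 43.6 CPM in vehicle libraries and rose 1.72-fold (log2 0.78, SE 0.05, edgeR adjusted p = 1.3e-06). FZD6 was not called (log2 0.07). Next in order came FZD4, FZD7 and FZD5 in both conditions, and in TGF-beta libraries FZD7 (1.097 ± 0.108 RPKM) and FZD5 (0.998 ± 0.0280 RPKM) did not differ beyond their spread.

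FZD7, a receptor known from stem and progenitor cells, measured 9.07, 10.9 and 10.8 CPM in TGF-beta libraries against 14.2, 22.3 and 21.4 CPM in vehicle libraries and fell (log2 -0.91, SE 0.19, edgeR adjusted p = 0.00949). FZD5 (log2 -0.56) and FZD3 (log2 -0.48) fell as well, FZD5 to 15.9 to 16.7 CPM in TGF-beta libraries against 22.2 to 25.5 CPM in vehicle libraries. FZD9 was scarce, with 1.51, 0.860 and 1.68 CPM in TGF-beta libraries against 0.787, 0.783 and 0.791 CPM in vehicle libraries, and its call was weak (log2 0.76, edgeR adjusted p = 0.0314): it was lost by DESeq2 (adjusted p = 0.0526), with library totals alone (edgeR adjusted p = 0.0541), and without TGF-beta replicate 1 or 3 or vehicle replicate 2 or 3 (edgeR adjusted p = 0.113, 0.142, 0.0781 and 0.0662). FZD1, FZD4 and FZD8 were not called, although FZD1 was lower with library totals alone (log2 -0.24, edgeR adjusted p = 0.0479), FZD8 higher without vehicle replicate 3 (log2 0.99, edgeR adjusted p = 0.032) and FZD4 lower without vehicle replicate 1. FZD4 shares exons in GENCODE v29 with PRSS23, which had 175541 reads over the 6 libraries against 12118 for FZD4 and a log2 fold change of -0.08. FZD10 had no read in any library.

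LRP5 and LRP6, the co-receptors of the beta-catenin branch, were both lower in the mean. LRP5 measured 69.9, 72.5 and 81.0 CPM in TGF-beta libraries against 91.5, 172 and 176 CPM in vehicle libraries. The groups did not overlap, but LRP5 was not called (log2 -0.98, SE 0.29, edgeR adjusted p = 0.06). It was called lower by DESeq2 (adjusted p = 0.00273), by limma on RPKM (adjusted p = 0.018 and 0.0171), with library totals alone (edgeR adjusted p = 0.0367), with a filter of 1 CPM (edgeR adjusted p = 0.0469) and without vehicle replicate 1 (log2 -1.22, edgeR adjusted p = 8.8e-19). LRP6 measured 56.2, 53.6 and 53.4 CPM in TGF-beta libraries against 54.9, 67.7 and 67.3 CPM in vehicle libraries, which overlap, and its call (log2 -0.22, edgeR adjusted p = 0.0485) was lost under most alternatives, with the replicate number as a block among them (edgeR adjusted p = 0.0988). The ratio of LRP5 to LRP6 RPKM within a library was 2.09, 2.27 and 2.54 in TGF-beta libraries against 2.80, 4.27 and 4.38 in vehicle libraries.

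RYK and ROR2, receptors used by ligands of the WNT5 type, were slightly higher. RYK measured 66.6, 64.8 and 67.5 CPM in TGF-beta libraries against 55.1, 53.3 and 54.4 CPM in vehicle libraries (log2 0.29, SE 0.04, edgeR adjusted p = 0.000378). ROR2 measured 22.8, 23.7 and 27.9 CPM in TGF-beta libraries against 22.5, 18.5 and 19.2 CPM in vehicle libraries (log2 0.30, SE 0.10, edgeR adjusted p = 0.0303). The ROR2 call was lost with library totals alone (edgeR adjusted p = 0.156), by limma on RPKM (adjusted p = 0.149 and 0.146), with the replicate block (edgeR adjusted p = 0.0599), and without TGF-beta replicate 2 or 3 or vehicle replicate 2 or 3 (edgeR adjusted p = 0.0568, 0.116, 0.0989 and 0.089).

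DKK1 and DKK3 made up most of the secreted antagonist transcript. DKK1, which blocks LRP5 and LRP6, averaged 21.4 ± 1.57 RPKM in TGF-beta and 9.81 ± 7.02 RPKM in vehicle libraries, and DKK3, a family member whose action on Wnt signalling is less clear, averaged 9.88 ± 0.218 and 7.72 ± 1.23 RPKM in the same order (mean ± SD, n = 3 each). DKK1 (ENSG00000107984, hg38 chr10:52314296-52318042) measured 122, 105 and 116 CPM in TGF-beta libraries against 90.0, 29.8 and 28.2 CPM in vehicle libraries. All TGF-beta values lay above all vehicle values, but vehicle replicate 1 lay nearer to the TGF-beta libraries than to the other vehicle libraries, and DKK1 was not called (log2 1.22, SE 0.55, edgeR adjusted p = 0.163). Without vehicle replicate 1 the log2 fold change was 1.98 (edgeR adjusted p = 2.89e-21), and limma on RPKM with all 6 libraries called it higher (adjusted p = 0.0408 and 0.0422).

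SFRP5, a secreted Frizzled-like antagonist, also had vehicle replicate 1 within the range of the TGF-beta libraries: 4.23, 3.31 and 4.33 CPM in TGF-beta libraries against 3.58, 0.676 and 0.906 CPM in vehicle libraries. It was not called (log2 1.26, SE 0.68, edgeR adjusted p = 0.221) and was without vehicle replicate 1 (log2 2.32, edgeR adjusted p = 5.21e-12). SFRP1, the most abundant SFRP gene per length, overlapped between conditions, with 31.6, 29.9 and 29.4 CPM in TGF-beta libraries against 37.2, 28.1 and 28.4 CPM in vehicle libraries, and was not called. DKK3 was higher (log2 0.44, SE 0.11, edgeR adjusted p = 0.0225), at 118, 122 and 124 CPM in TGF-beta libraries against 72.7, 95.9 and 98.5 CPM in vehicle libraries. Its call was lost with library totals alone (edgeR adjusted p = 0.0547) and without TGF-beta replicate 1, 2 or 3 (edgeR adjusted p = 0.0587, 0.0607 and 0.0757).

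SFRP4 was called higher (log2 2.58, SE 0.45) at very low levels, 20, 27 and 17 reads in TGF-beta libraries against 5, 1 and 7 in vehicle libraries. Its span overlaps that of EPDR1, without shared exons in GENCODE v29. EPDR1 had 11009 reads over the 6 libraries and a log2 fold change of 0.02. SFRP2, FRZB, WIF1, DKK2 and DKK4 were under the filter, FRZB with 11 reads over the TGF-beta and 12 over the vehicle libraries and WIF1 with none.

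**Figure D4:**
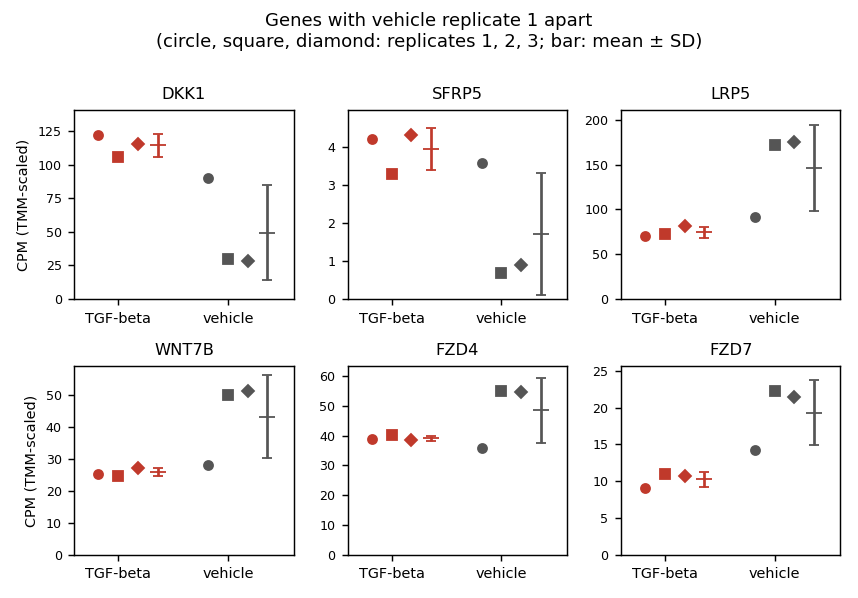
TMM-scaled CPM in each library for 6 genes in which vehicle replicate 1 (circle) stood away from vehicle replicates 2 and 3, with the mean ± SD (n = 3). In each panel vehicle replicate 1 lies nearer to the TGF-beta libraries than the other 2 vehicle libraries do.

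The 6 genes plotted for the place of vehicle replicate 1 were chosen after their values were seen, from the 10 members in which it stood apart. In the other 4, WNT9A, WNT11, FZD8 and AXIN2, vehicle replicate 1 was lower than the other 2 vehicle libraries and lay farther from the mean of the TGF-beta libraries than they did. Relative to the mean of vehicle replicates 2 and 3, vehicle replicate 1 was higher in DKK1 by 1.63 and in SFRP5 by 2.06 on the log2 CPM scale, and measured -0.93 for LRP5, -0.84 for WNT7B, -0.62 for FZD4 and -0.61 for FZD7. FZD4 measured 38.8, 40.1 and 38.4 CPM in TGF-beta libraries against 35.7, 55.1 and 54.6 CPM in vehicle libraries. It was called lower without vehicle replicate 1 (log2 -0.49, edgeR adjusted p = 4.43e-10) and not with all 6 libraries (log2 -0.31, edgeR adjusted p = 0.239). Without vehicle replicate 1, 19 members were higher and 15 lower of 42 tested, against 24.9% and 25.5% of all genes tested in that fit, in which 50.4% were called. The members called in that fit and not with all 6 libraries were WNT2B, WNT7B, FZD4, LRP5, AXIN1 and TCF7L2, all lower, and DKK1, SFRP5 and WNT7A, all higher.

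RNF43 and ZNRF3 are membrane ubiquitin ligases that remove Frizzled receptors, and LGR4 and LGR5 are receptors for R-spondins, which shut these ligases off. RNF43 (hg38 chr17:58352500-58417595) measured 0.924, 0.794 and 0.903 CPM in TGF-beta libraries against 4.53, 4.43 and 4.15 CPM in vehicle libraries (log2 -2.32, SE 0.13, edgeR adjusted p = 3.26e-07), 5.01-fold lower with no overlap. ZNRF3 was not called (log2 -0.04; lower with library totals alone, log2 -0.17, edgeR adjusted p = 0.0239), at 24.0, 24.3 and 24.5 CPM in TGF-beta libraries against 25.2, 25.5 and 24.0 CPM in vehicle libraries. The ratio of RNF43 to ZNRF3 RPKM within a library was 0.0335 ± 0.00279 in TGF-beta and 0.163 ± 0.0034 in vehicle libraries (mean ± SD, n = 3 each). LGR4 fell slightly, to 32.8, 32.0 and 31.2 CPM in TGF-beta libraries against 40.3, 41.6 and 41.7 CPM in vehicle libraries (log2 -0.36, SE 0.05, edgeR adjusted p = 0.000151). LGR5, a target gene and stem cell marker, was under the filter with 6 reads over the TGF-beta and 4 over the vehicle libraries. RNF43 shares exons in GENCODE v29 with SUPT4H1 and with the antisense gene BZRAP1-AS1, which had 16788 and 3713 reads over the 6 libraries against 758 for RNF43 and log2 fold changes of -0.07 and -0.12.

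Among the intracellular genes, the 2 naked cuticle genes, whose products bind Dishevelled and restrain the pathway, parted. NKD2 (ENSG00000145506, hg38 chr5:1008829-1038943) measured 6.94, 7.04 and 7.69 CPM in TGF-beta libraries against 24.3, 26.1 and 25.4 CPM in vehicle libraries (log2 -1.80, SE 0.07, edgeR adjusted p = 1.91e-08). NKD1 measured 1.01, 1.01 and 1.26 CPM in TGF-beta libraries against 0.215, 0.213 and 0.193 CPM in vehicle libraries (log2 2.39, SE 0.23, edgeR adjusted p = 2.08e-05). Since NKD1 passed the filter through the TGF-beta libraries alone, only a rise could be called for it. Per length NKD2 stayed above NKD1 in both conditions, at 1.03 ± 0.0533 against 0.0508 ± 0.00652 RPKM in TGF-beta libraries and 3.83 ± 0.125 against 0.0102 ± 0.000574 RPKM in vehicle libraries (mean ± SD, n = 3 each).

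DIXDC1, a DIX-domain protein that binds Dishevelled and Axin and is known as a positive regulator of the pathway, had the smallest p of all members. It measured 106, 105 and 101 CPM in TGF-beta libraries against 19.1, 19.4 and 19.3 CPM in vehicle libraries, 5.41-fold higher (log2 2.44, SE 0.05, edgeR adjusted p = 3.08e-10). AXIN1, the scaffold of the complex that destroys beta-catenin, was not called (log2 -0.15, edgeR adjusted p = 0.111), at 27.3, 27.6 and 27.7 CPM in TGF-beta libraries against 27.3, 32.4 and 31.8 CPM in vehicle libraries. It was called lower with library totals alone (edgeR adjusted p = 0.00631), by limma on RPKM (adjusted p = 0.0495 and 0.0481) and without vehicle replicate 1 (edgeR adjusted p = 0.000511). AXIN2, the feedback gene most used as a readout of beta-catenin activity, measured 3.75, 4.63 and 3.35 CPM in TGF-beta libraries against 3.05, 4.63 and 4.32 CPM in vehicle libraries. The groups overlapped and AXIN2 was not called (log2 -0.04, SE 0.17, edgeR adjusted p = 0.892). AXIN2 shares exons in GENCODE v29 with CTD-2535L24.2, which had 601 reads over the 6 libraries against 1086 for AXIN2 and a log2 fold change of 0.06.

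Of the TCF/LEF factors, which carry beta-catenin to DNA, TCF7 rose. It measured 22.7, 25.2 and 23.2 CPM in TGF-beta libraries against 9.52, 9.48 and 9.99 CPM in vehicle libraries (log2 1.29, SE 0.07, edgeR adjusted p = 1.6e-07). TCF7 shares exons in GENCODE v29 with SKP1 on the other strand, which had 61736 reads over the 6 libraries against 4303 for TCF7 and a log2 fold change of 0.01. TCF7L2 was the most abundant of the family per length, at 1.95 ± 0.110 RPKM in TGF-beta and 2.35 ± 0.251 RPKM in vehicle libraries (mean ± SD, n = 3 each). It was not called (log2 -0.18, edgeR adjusted p = 0.102), but was called lower with library totals alone, without a filter and without vehicle replicate 1 (edgeR adjusted p = 0.00935, 0.0313 and 0.000187). The ratio of TCF7 to TCF7L2 RPKM within a library was 0.451, 0.535 and 0.512 in TGF-beta libraries against 0.202, 0.163 and 0.178 in vehicle libraries.

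TCF7L1, known mainly as a repressor, was called higher (log2 0.51, SE 0.16, edgeR adjusted p = 0.0249), at 3.81, 4.26 and 3.97 CPM in TGF-beta libraries against 2.17, 3.43 and 2.82 CPM in vehicle libraries. That call was lost with library totals alone (edgeR adjusted p = 0.0628) and without TGF-beta replicate 1, 2 or 3 or vehicle replicate 3 (edgeR adjusted p = 0.0561, 0.0988, 0.072 and 0.0586). LEF1, itself a common feedback gene, had 8 reads over the TGF-beta and 6 over the vehicle libraries.

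Promoter sequences of RefSeq on GRCh38.p14 matched 41 of the 58 members, and the 250 bases before each start were searched on both strands. The TCF/LEF core CTTTGA was found in 1 of the 41, DKK1, and in 11.4% of all 27305 promoters of that length. The AP-1 core TGANTCA was in 0 of the 41 and 6.6% of all, and the SMAD core CAGAC in 46.3% of the members and 37.8% of all. The GC box GGGCGG was in 34 of the 41 (82.9%) and in 42.3% of all. The windows of DKK1, of NKD2, the member with the second largest fall, and of WNT5B, the leading ligand with TGF-beta, are printed 5′ to 3′ to show the bases searched, with matches to the TCF/LEF core, to the SMAD core and to the GC box in capitals on either strand. They lie at chr10:52314031-52314280 for DKK1, chr5:1008552-1008801 for NKD2 and chr12:1616806-1617055 for WNT5B, all on the plus strand.
DKK1: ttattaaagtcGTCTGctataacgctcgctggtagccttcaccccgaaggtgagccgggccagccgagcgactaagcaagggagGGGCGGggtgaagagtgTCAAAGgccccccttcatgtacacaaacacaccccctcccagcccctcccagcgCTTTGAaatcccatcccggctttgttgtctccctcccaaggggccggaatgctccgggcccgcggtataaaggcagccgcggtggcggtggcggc
NKD2: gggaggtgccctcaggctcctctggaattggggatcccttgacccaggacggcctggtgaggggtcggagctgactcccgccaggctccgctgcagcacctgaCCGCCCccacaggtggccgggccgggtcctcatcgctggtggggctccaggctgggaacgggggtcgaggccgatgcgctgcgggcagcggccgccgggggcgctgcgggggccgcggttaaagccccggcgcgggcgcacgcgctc
WNT5B: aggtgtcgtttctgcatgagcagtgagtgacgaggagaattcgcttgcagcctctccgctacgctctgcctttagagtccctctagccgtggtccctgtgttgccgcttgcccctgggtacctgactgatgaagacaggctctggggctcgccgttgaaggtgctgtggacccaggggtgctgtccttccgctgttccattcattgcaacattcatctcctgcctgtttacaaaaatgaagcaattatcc
The DKK1 window held the TCF/LEF core at -149 and -95 from the start, the GC box at -166 and the SMAD core at -239. NKD2 held 1 GC box, at -147, and WNT5B none of the motifs. The start RefSeq gives for WNT5B lies inside the gene's span in the deposited table. A match is a description of the letters, not of binding.

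Other genes of the pathway were taken from 5 lists, 123 genes in all, of which 107 were tested, 42 were higher and 18 lower. These lists, too, were chosen with earlier results of these data known. Called genes made up 56.1% of the 107, beside 40.1% of all genes tested, of which 19.7% were higher and 20.4% lower. The median log2 fold change over the 107 was 0.05, beside -0.01 over all genes tested. Among the 99 list genes above the filter's floor in all 6 libraries, 38 were higher and 17 lower. For the counts per list under other settings below, the share of all genes was 12.9% higher and 34.7% lower with library totals alone, and 24.9% and 25.5% without vehicle replicate 1.

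Extracellular regulators outside the member list were higher in 11 of 17 tested genes and lower in 1, with a median log2 fold change of 0.53. TRABD2B and CTHRC1 passed the filter through the TGF-beta libraries alone and had to be higher. NOTUM and TSPAN12 were above its floor in 3 TGF-beta and 2 vehicle libraries. Among the 13 genes above the floor in all 6 libraries, 7 were higher and 1 lower, with a median of 0.48. NOTUM, a secreted enzyme that removes the lipid from Wnt proteins and a known feedback gene in other tissues, measured 5.12, 6.04 and 7.17 CPM in TGF-beta libraries against 0.143, 0.391 and 0.328 CPM in vehicle libraries (log2 4.35, SE 0.24, edgeR adjusted p = 5.35e-07). Higher members included the antagonist gene DRAXIN (log2 1.49) and the DKK receptor genes KREMEN1 (log2 0.53) and KREMEN2 (log2 0.50). SULF1, a heparan sulfate sulfatase, was lower (log2 -0.96, edgeR adjusted p = 0.0173), but not without TGF-beta replicate 1 or 3 (edgeR adjusted p = 0.0607 and 0.0705). LGR6 was not called (log2 0.98), and the R-spondin genes RSPO1 to RSPO4 were under the filter. The list had 3 lower genes with library totals alone and without TGF-beta replicate 2, and 4 without vehicle replicate 1 and without a filter.

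Planar polarity and non-canonical genes were higher in 9 of 20 tested and lower in 3 (median log2 0.05). PRICKLE2 rose to 75.7, 73.3 and 71.1 CPM in TGF-beta libraries, against 25.4, 26.2 and 23.03 CPM in vehicle libraries (log2 1.56, SE 0.06, edgeR adjusted p = 1.77e-08). The cadherin genes CELSR1 (log2 0.92) and CELSR2 (log2 0.89), VANGL2 (log2 0.78) and PTK7 (log2 0.67), all of the polarity machinery, rose too. Their list partners CELSR3 (log2 -0.03), VANGL1 (log2 0.04), SCRIB (log2 0.07) and INVS (log2 -0.08) were not called. CAMK2D, a calcium-dependent kinase, fell to 12.4, 12.8 and 12.1 CPM in TGF-beta libraries, against 24.2, 38.0 and 35.2 CPM in vehicle libraries (log2 -1.39, SE 0.17), and PRICKLE1 fell (log2 -0.81), opposite to PRICKLE2. ROR1 (log2 -0.32) was the remaining lower gene. The counts of this list were 7 higher and 7 lower with library totals alone, and 10 and 5 without vehicle replicate 1.

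**Figure D5:**
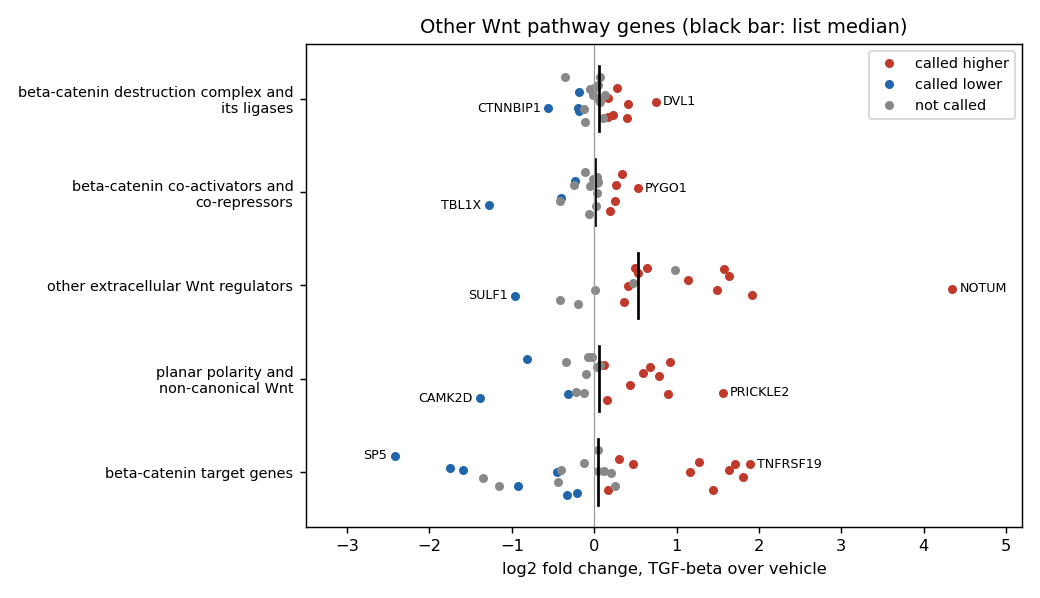
Log2 fold change of TGF-beta over vehicle for the tested genes of 5 other Wnt pathway lists, 1 point per gene, with the list median as a black bar and the outermost genes named. NOTUM stands at 4.35 and SP5 at -2.42. NOTUM was above the filter's floor in 3 TGF-beta and 2 vehicle libraries, and SP5 in the vehicle libraries alone.

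The beta-catenin destruction complex and its ligases were higher in 7 of 23 genes and lower in 4 (median log2 0.06). CTNNB1, beta-catenin itself, measured 479, 465 and 478 CPM in TGF-beta libraries against 340, 370 and 365 CPM in vehicle libraries (log2 0.40, SE 0.04, edgeR adjusted p = 5.26e-05). DVL1, a Dishevelled gene, had the largest rise (log2 0.74), and CTNNBIP1, which keeps beta-catenin off TCF factors, the largest fall (log2 -0.56, edgeR adjusted p = 0.0116, but 0.0515 without TGF-beta replicate 2). Co-activators and co-repressors were higher in 5 of 20 genes and lower in 3 (median log2 0.01). PYGO1, a nuclear partner of BCL9, rose (log2 0.53), and TBL1X, a part of co-repressor complexes, fell (log2 -1.28). With library totals alone the counts were 3 higher and 8 lower in the first list and 2 higher and 8 lower in the second. Leaving out 1 library gave 5 to 8 higher and 1 to 4 lower in the first and 2 to 6 and 2 to 4 in the second.

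Genes often listed as beta-catenin targets moved both ways, with 10 of 27 tested genes higher and 7 lower (median log2 0.04). TNFRSF19 (log2 1.89), the ephrin receptor gene EPHB2 (log2 1.71) and JUN (log2 1.27) rose. The cholangiocyte factor gene SOX9 (log2 -1.76), the ligand gene BMP4 (log2 -1.60) and WISP1 (log2 -0.92) fell. SP5, one of the most direct targets in embryos, was called lower (log2 -2.42, SE 0.45, edgeR adjusted p = 0.00177) on few reads, 1, 3 and 3 in TGF-beta libraries against 10, 20 and 19 in vehicle libraries. It passed the filter through the vehicle libraries alone, so it had to be lower. Among the 24 targets above the floor in all 6 libraries, 10 were higher and 6 lower. MYC was slightly higher (log2 0.16), CCND1 was not called (log2 -0.44), and CD44 was not called (log2 0.04). Leaving out vehicle replicate 1 gave 11 higher and 11 lower genes. SNAI2, SOX9, BMP4 and CTGF of this list are also described as responding to TGF-beta in many cells, and the list does not separate the pathways.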

How the data were processed

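RNA sequencing of 6 H69 libraries was analysed from 1 deposited table. Per the submitters' processing notes, the tools were bcl2fastq, STAR 2.6.1 and featureCounts of Subread, with build hg38; strand setting, multi-mapping and annotation release are not given in the sources used here. The count columns hold whole, unscaled read counts for each gene, per the file headers. The RPKM columns hold the authors' RPKM, per the file headers; the gene lengths (other) are also as deposited. RPKM was used between genes, for sums, shares and ratios over genes, and in the limma fits. TMM-scaled CPM was used for single genes between samples. Where RPKM is given for both conditions, it carries no TMM factor. Those factors were 0.951 to 0.961 in TGF-beta and 1.04 to 1.05 in vehicle libraries.

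The main test used edgeR 4.0.16 (R 4.3.3) on these counts, with TMM scaling, filterByExpr (minimum count 10) and its quasi-likelihood F test with robust estimation, over 20992 genes, calling at an adjusted p under 0.05. The SE was taken as the size of the log2 change over the root of its F statistic. Members and lists were chosen with earlier results of these data known. Every tested member could be named; full values went to the largest rises and falls of each role, members changed at least 2-fold, the most abundant of each role and a fixed set of feedback genes, and from each pathway list to the largest rise and fall. Other list genes, and the other values given, were chosen after their values were seen. Within-library ratios were compared by exact permutation tests. Alternatives were RLE factors, library totals, no filter, a filter of 1 CPM in 3 samples, DESeq2 1.42.0, limma 3.58.1 on log2(RPKM + 1) and log2(RPKM + 0.1) with a mean RPKM of at least 0.5, a replicate block and leaving out each library. Steps were tested on simulated data with few changed genes, as many up as down, and no library standing apart. These data are less simple, so that test cannot show how the calls fare here. Within a condition the lowest chi-square between 2 libraries, divided by its degrees of freedom, was 2.47, so none was counted as a duplicate. Of tested members, 8 share exons with another tested gene in GENCODE v29, and reads of such pairs may be split.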

Additional observations from a re-analysis of the deposited data

How the results depend on the processing

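Of the 25 called members, 20 kept their direction and call under each of the 14 alternatives that tested them. FZD9, LRP6, ROR2, DKK3 and TCF7L1 did not. The 20 include SFRP4 and NKD1, which passed the main filter through the TGF-beta libraries alone, so that their kept direction adds no support. SFRP4, NKD1 and WNT11 were tested in 11 of the 14 alternatives. With library totals alone the median of all genes was -0.14 on the log2 scale, and the counts were 2698 genes higher and 7282 lower, 12 members higher and 16 lower, and 34 pathway list genes lower. Limma on log2(RPKM + 1) and log2(RPKM + 0.1) tested 25 members, called 9 higher in each and 24 pathway list genes higher in each, with 2419 and 2411 genes higher over all. Fewer members pass that filter; the cause of the rest was not tested. Leaving out 1 library gave 8 to 15 members lower, 12 to 19 members higher and 14 to 28 pathway list genes lower, the highest without vehicle replicate 1. FZD6, not called, turned to -0.0578 with library totals alone and to -0.0147 and -0.0175 with limma on RPKM, on the log2 scale. Leaving out 1 library, SFRP1, not called, ranged from -0.113 to 0.0999, above 0 without vehicle replicate 1, and AXIN2, not called, from -0.183 to 0.0842, above 0 without TGF-beta replicate 3 or vehicle replicate 2 or 3; the cause was not tested. Same-numbered libraries deviated together with correlations of 0.0869, 0.0499 and 0.053, and libraries of unlike number with -0.0919 to 0.0505. With 3 libraries per condition, such small values cannot show whether the numbers pair the libraries. The replicate block gave 15 members higher and 8 lower. Of the 18 members under the filter, 15 could be tested without it, and WNT6 and WNT7A were called; WNT9B, FZD10 and WIF1 had no read at these depths.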
